A study of Monodelphis domestica and Mus musculus with 26 samples.

Results

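The cells described here are testis cells of mouse and opossum that carry transcripts of Leydig cell genes. A cell barcode was kept with at least 1000 counts and 500 detected genes. It was then taken as a Leydig-rule cell when the summed counts of 7 genes (CYP17A1, CYP11A1, HSD3B1, STAR, INSL3, LHCGR and HSD3B6), as far as the annotation of the species names them, reached 4.5. The rule selected 2826 of 47192 kept cells, 635 of 25445 in mouse and 2191 of 21747 in opossum. All 7 genes are named in the mouse annotation and 2 of them, STAR and CYP11A1, in the opossum annotation, so the cells were chosen on different genes in the 2 species.

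Whole decapsulated testes were dissociated with collagenase and trypsin and profiled by droplet-based single-cell sequencing of transcript 3′ ends (10x Genomics Chromium), with 3 libraries per species. The mouse libraries came from adult male C57BL6/J animals of 8 to 16 weeks, and the opossum libraries from adult male gray short-tailed opossums (Monodelphis domestica), a marsupial. No group was treated or carried an engineered allele, and the labels do not say how many animals each library holds or that they are separate animals, so a p-value here measures only the spread between libraries, part of which may be technical. Species, library set and gene annotation go together in this design and cannot be told apart.

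Leydig cells lie between the seminiferous tubules and make the androgens of the testis. Luteinizing hormone binds the receptor LHCGR and raises cyclic AMP, STAR moves cholesterol into mitochondria, CYP11A1 cuts the side chain to give pregnenolone with electrons from FDXR and FDX1, and HSD3B enzymes, CYP17A1 and HSD17B3 complete the route to testosterone. The cells take cholesterol from lipoproteins or make it themselves, and they secrete INSL3, the peptide hormone of testis descent. The nuclear receptor NR5A1 (SF-1) is known to activate many genes of this route.

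Total counts were 45395185 to 65263953 per mouse library and 22710048 to 37747724 per opossum library. The summed counts of the Leydig-rule cells were 649408 to 1196673 in mouse and 2464727 to 5536180 in opossum. In replicate order, a mouse member had a median depth of 6057, 3312 and 4950 counts, against 2718, 4674 and 2928 in the other kept mouse cells. An opossum member had a median of 9897, 4976 and 2540 counts, against 1944, 2106 and 1536 in the other kept opossum cells. At most 76 kept barcodes were shared by any 2 libraries, and 0 of the shared barcodes belonged to Leydig-rule cells in both. Mouse replicates 1 and 2 shared those 76, and each shared at most 1 with any other library. Mouse replicate 3 shared 13, 22 and 24 with opossum replicates 1, 2 and 3, which shared 8 to 17 with each other. What this pattern reflects was not tested. The rule sum had a median of 83.9, 53.9 and 113 counts per member in the mouse libraries and 11.7, 13.7 and 8.79 in the opossum libraries. Just inside the threshold, between 4.5 and 6 counts, lay 4, 5 and 6 mouse members and 33, 90 and 235 opossum members, and just outside, between 3 and 4.5 counts, lay 11, 9 and 2 mouse cells and 52, 86 and 135 opossum cells.

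The label was checked on Leydig markers outside the rule, of which 15 are named in mouse and 9 in opossum. In mouse they summed to 329, 364 and 289 counts per 10000 in the members and to 2.82, 2.49 and 2.29 in the other kept cells. All 14 of these mouse markers that reached 20 per 1000000 counts were at least 2-fold higher in the members in every library, beside 24.4% of all genes. In opossum 5 of 8 (NR5A1, FDX1, FDXR, SCARB1 and PRLR) were at least 2-fold higher in every library, beside 6.59% of all genes. The opossum markers summed to 18.7, 30.7 and 39.2 counts per 10000 in the members and 16.96, 8.18 and 8.81 in the others. The members of opossum replicate 1 thus hardly differed from the other cells of that library in the marker sum. The 5 genes just named were nevertheless each at least 3.29-fold higher in every opossum library. The sum also holds ALDH1A1, at 1913, 3115 and 4051 per 1000000 counts of symbols matched between the species in the opossum members. Its level was 0.867-fold to 4.27-fold that of the other opossum cells. LHX9, a homeobox factor of the early gonad, was lower in the opossum members, at 5.81, 1.97 and 9.67 per 1000000 counts against 72.1, 28.0 and 57.0 in the other cells. Sertoli markers summed to 2.23, 3.46 and 3.97 counts per 10000 in the mouse members against 2.30, 0.429 and 1.84 in the other cells, so they were higher in the members of mouse replicates 2 and 3, and their part in the results was not tested. In the opossum members they were lower, at 0.458, 0.373 and 0.208 against 1.53, 1.12 and 0.547. Peritubular or stromal markers were at 5.06, 3.80 and 4.12 in the mouse members against 4.16, 3.52 and 4.42, and at 2.60, 3.19 and 4.82 in the opossum members against 14.47, 8.16 and 14.98. Endothelial markers (at most 0.315 in the members) and immune markers (at most 3.16) were below the other cells in every library. Cd3e was at 0 in the mouse members and CDH5 at 0 in the opossum members. Of the Sertoli markers, Amh was at 0 in the mouse members.

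Germ cell transcripts were present in the members and differed between libraries. Elongating spermatid markers summed to 198, 58.3 and 69.1 counts per 10000 in the mouse members (585, 399 and 645 in the other cells) and to 0.626, 19.9 and 5.56 in the opossum members (117, 252 and 136). Spermatocyte markers summed to 3.58, 7.28 and 9.49 in the mouse members, below the 22.0 to 31.0 of the other mouse cells. In opossum they summed to 17.1, 4.23 and 2.55 in the members against 12.9, 14.8 and 14.3 in the others, so opossum replicate 1 alone had more of them in its members than in the rest.

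Opossum replicate 1 also stood apart in its deepest members. In that library 37 of the 172 members had a rule sum under 0.1% of their own counts, and these cells, with a median of 27667 counts, held 53.8% of the counts of its members. They carried 30.4 spermatocyte and 9.79 Leydig marker counts per 10000, whereas the other 135 members carried 1.60 and 29.1. Such cells numbered 47 in opossum replicate 2, 4 in opossum replicate 3 and 1, 1 and 0 in the mouse libraries. The name Leydig therefore holds by its outside markers for the mouse members and for most opossum members, and goes against the data for this subset; the counts and list medians of the species comparison are therefore also given without opossum replicate 1 and without such cells of any library (the 0.1% rule, chosen after the data were seen). Mouse replicate 3 stood apart for INSL3 and for immediate-early genes, as described with those genes. Its shared barcodes, given above, were also unlike those of the other mouse libraries.

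**Figure D1:**
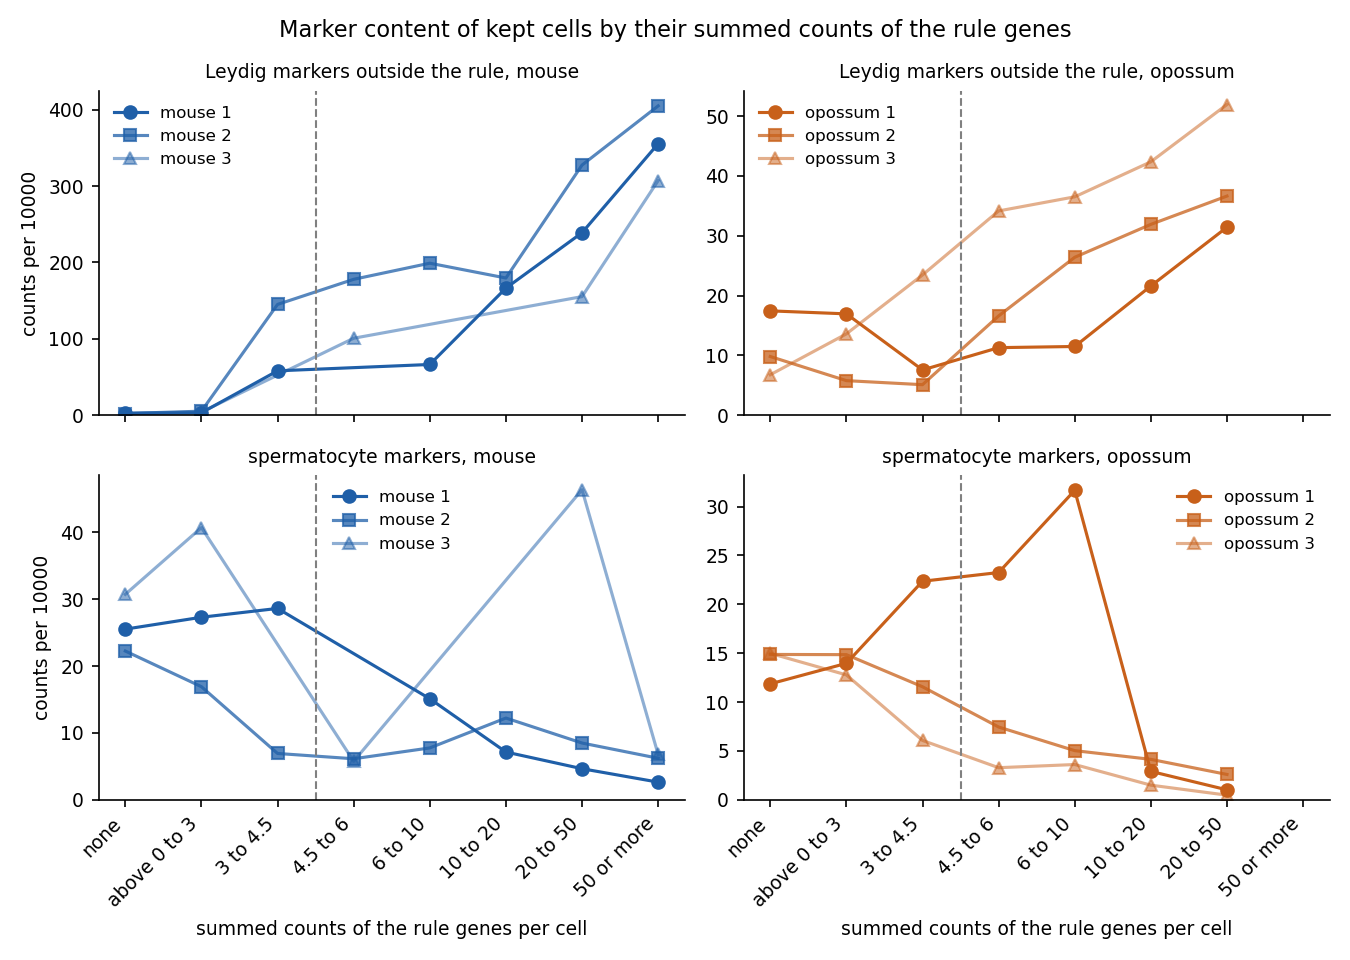
Counts per 10000 of Leydig markers outside the rule (upper panels) and of spermatocyte markers (lower panels) against the summed counts of the rule genes per cell, for the 3 mouse libraries (left) and the 3 opossum libraries (right); each point pools the kept cells of a library in that range, and the dashed line is the threshold of 4.5. Leydig markers were higher above the line than among cells without a rule count in every library but opossum replicate 1 below 10 counts, where spermatocyte markers peaked at 31.7 per 10000.

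The 7 rule genes chose the cells, so their levels are a description without a test, in CPM (counts per 1000000 counts of the pooled cells). In mouse they lie on chromosome 8 at 26296583 to 26306010 (Star, plus strand), 9 at 57913694 to 57935933 (Cyp11a1, plus), 19 at 46655604 to 46661611 (Cyp17a1, minus), 3 at 98757367 to 98767116 (Hsd3b1, minus), 3 at 98712820 to 98721765 (Hsd3b6, minus), 8 at 72141858 to 72143225 (Insl3, plus) and 17 at 89023909 to 89099473 (Lhcgr, minus), in GRCm39 with GENCODE vM39. The 250 bases before the start of the canonical transcript are shown for Star and Insl3, which carry the most matches to the core of the NR5A1 site, and for Cyp11a1, which carries none, each 5′ to 3′ on the strand of the gene. Capitals mark TCAAGG or CCAAGG or their reverse complements CCTTGA and CCTTGG.
Star, chr8:26298243-26298492, plus strand: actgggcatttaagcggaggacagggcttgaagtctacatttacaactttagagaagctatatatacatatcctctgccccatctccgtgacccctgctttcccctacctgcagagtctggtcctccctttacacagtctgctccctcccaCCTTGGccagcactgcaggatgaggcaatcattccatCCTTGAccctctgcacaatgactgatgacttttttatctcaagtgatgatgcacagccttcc
Insl3, chr8:72141608-72141857, plus strand: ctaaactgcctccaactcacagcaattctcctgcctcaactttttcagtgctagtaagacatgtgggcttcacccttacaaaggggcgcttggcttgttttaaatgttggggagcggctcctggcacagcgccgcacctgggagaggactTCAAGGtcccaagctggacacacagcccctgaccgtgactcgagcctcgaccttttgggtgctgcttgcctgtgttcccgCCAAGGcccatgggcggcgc
Cyp11a1, chr9:57921616-57921865, plus strand: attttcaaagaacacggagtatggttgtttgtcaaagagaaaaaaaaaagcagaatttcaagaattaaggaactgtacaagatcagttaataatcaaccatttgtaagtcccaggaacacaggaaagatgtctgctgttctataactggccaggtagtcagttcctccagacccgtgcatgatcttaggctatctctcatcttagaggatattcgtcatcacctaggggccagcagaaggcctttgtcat
The matches start at -99 and -62 in Star, both as reverse complements, and at -100 and -20 in Insl3. The windows of Star and Cyp11a1 lie inside the annotated gene, since longer transcripts start further upstream. Cyp17a1, Hsd3b1 and Lhcgr held 1 match each and Hsd3b6 held 0. Of 21770 mouse promoter windows of this length, 13.0% held TCAAGG, 18.6% held CCAAGG and 29.3% held either, on either strand. A match describes letters, not binding.

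STAR is the cholesterol carrier of the rate-limiting step and is named in both species. In mouse members it stood at 1385, 1695 and 1552 CPM in replicates 1 to 3, with 0.773 to 2.26 CPM in the other kept cells. In opossum members it stood at 825, 1919 and 2715 CPM, with 76.4, 58.8 and 106 CPM in the others. The libraries of the 2 species overlapped in the members, and the level in the other cells was higher in every opossum library than in any mouse library. A STAR count was present in 99.4%, 100% and 99.9% of opossum members and in 23.8%, 21.3% and 27.5% of the other opossum cells. As a cell type that should lack the gene, opossum cells with at least 2% of their counts from elongating spermatid markers had a STAR count in 15.3%, 19.7% and 20.3% of cells, at a median depth of 1180, 5102 and 1500 counts. The other opossum cells had a median depth of 1944, 2106 and 1536 counts. The depths differ, so the shares give no order; the STAR level in the cells with elongating spermatid markers was 55.9, 18.8 and 30.5 CPM, below that of all the other cells in each library.

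CYP11A1, the side chain cleavage enzyme, was at 2629, 2127 and 2117 CPM in mouse members and at 330, 713 and 1023 CPM in opossum members. All 3 opossum libraries lay below all 3 mouse libraries. In the other cells it was at 0.239 to 2.08 CPM in mouse and 18.1, 7.50 and 44.5 CPM in opossum. A count was present in 82.6% to 91.3% of mouse members and in 78.5%, 93.9% and 91.6% of opossum members, against 2.88%, 0.723% and 6.12% of opossum cells with elongating spermatid markers.

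The other 5 rule genes are named in mouse only. Cyp17a1, which makes androgen precursors, was at 7588, 8246 and 7503 CPM and gave 37.6% to 45.8% of the rule counts of the mouse members. Insl3 was at 1148, 1395 and 6629 CPM, so replicate 3 stood far above the other 2 mouse libraries, and its share of the rule counts was 33.2% there against 6.93% and 7.37%. Hsd3b6, the isoform of adult mouse Leydig cells, was at 1682, 3207 and 1059 CPM and was lowest in replicate 3. Hsd3b1 was at 1541, 1439 and 625 CPM, again lowest in replicate 3, though counting could split reads between these close paralogs, and Lhcgr was at 577, 817 and 463 CPM. All rule genes together made up 1.66%, 1.89% and 2.00% of the members' counts in mouse and 0.115%, 0.263% and 0.374% in opossum, where STAR alone was 71.5% to 72.9% of the rule counts.

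**Figure D2:**
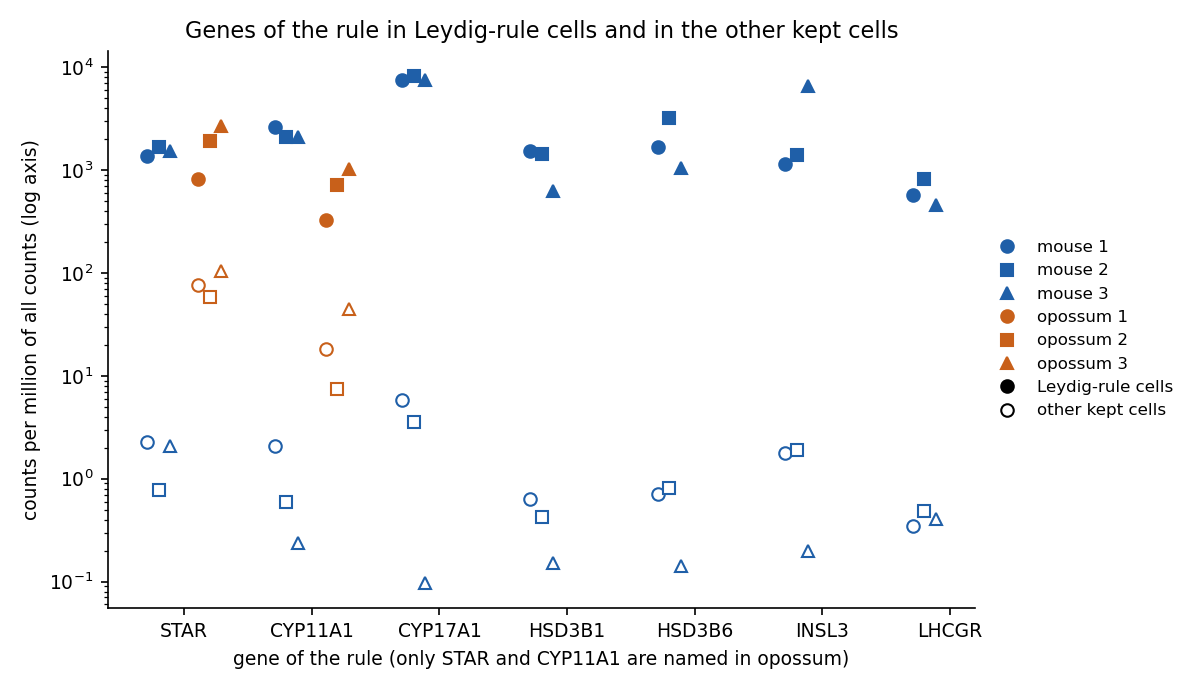
Level of each rule gene in CPM of all counts (log axis) in the Leydig-rule cells (filled) and the other kept cells (open) of each library; symbols mark replicates. STAR and CYP11A1 in the other cells were higher in the opossum libraries (7.50 to 106 CPM) than in the mouse libraries (0.239 to 2.26 CPM), and Insl3 was highest in mouse replicate 3.

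The share of kept cells that met the rule was 2.13%, 4.47% and 1.18% in the mouse libraries and 3.09%, 12.1% and 12.9% in the opossum libraries. The means were 2.59% ± 1.69 and 9.35% ± 5.44 (SD, n = 3 each). Mouse replicate 2 lay above opossum replicate 1, so the species overlapped, and the difference of 6.76 percentage points did not pass an exact two-sided permutation test (p = 0.2, where 3 against 3 libraries cannot go below 0.1). Without opossum replicate 1 the difference was 9.89 points.

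The share moved with depth and with the genes read. With every cell thinned to 1000 counts it was 2.45% in mouse and 2.27% in opossum (exact permutation p = 1), and thinned with only the genes named in both species it was 0.724% and 2.26% (exact permutation p = 0.4). When the rule sum also had to be 0.5% of a cell's counts, the order turned, with 2.45% in mouse and 1.21% in opossum (exact permutation p = 0.5). With a minimum of 2000 counts per cell it was 3.11% and 18.4% (exact permutation p = 0.1, the lowest possible), and the libraries no longer overlapped. The species difference in share thus did not keep its direction or size across these settings.

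**Figure D3:**
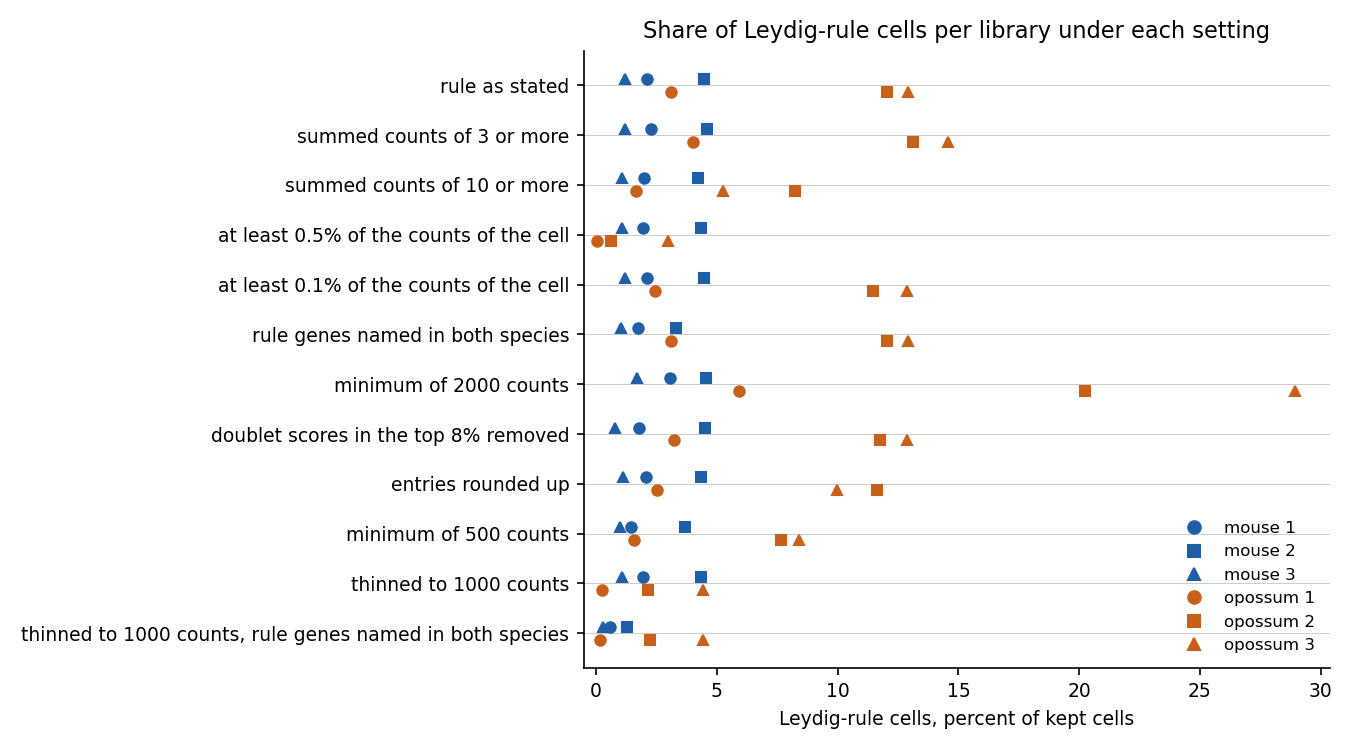
Leydig-rule cells as percent of kept cells in each library (symbols) under the stated rule and under each alternative, mouse in blue and opossum in orange. The species overlapped under every setting shown except the minimum of 2000 counts, and opossum replicate 1 lay at the lowest opossum share in each.

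Next the members were set against the other kept cells of the same library. The rule used this contrast, so counts are given as a description with no test. A gene was counted as higher when its CPM plus 1 was at least 2-fold that of the other cells in all 3 libraries, among genes at 20 CPM or more in either population. In mouse 2197 of 9013 genes (24.4%) were higher and 2989 (33.2%) lower. In opossum 586 of 8893 (6.59%) were higher and 2200 (24.7%) lower, and without opossum replicate 1 the numbers were 1219 and 3488.

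With the rule genes left out, the 10 mouse genes with the largest lowest-of-3 ratio were Lcn2, Bhmt, Sult1e1, Akr1cl, Fabp3, Agt, Tmem176a, Ptgds, Hsd17b3 and Ephx1. Fabp3, a fatty acid carrier, was at 13718 ± 1000 CPM in the members (SD, n = 3) and 629-fold to 1513-fold above the other cells. Ptgds, a prostaglandin D synthase, was at 11741 ± 3594 CPM and 487-fold to 1462-fold above them. Lcn2, a carrier of iron-binding siderophores, was at 10626, 8850 and 7574 CPM. Sult1e1, the estrogen sulfotransferase, was at 1853, 3235 and 965 CPM with 0.0207 to 1.34 CPM in the other cells. Hsd17b3, which makes testosterone from androstenedione, was at 1896, 1467 and 556 CPM and so was lowest in replicate 3, as Hsd3b1 and Hsd3b6 were. Agt, the angiotensin precursor, was even across libraries at 3456 ± 251 CPM.

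In opossum the 10 leading genes by the same measure, again with the rule genes left out, included HSPB6, CYP2F1, SLC27A5, CES2.1, LHFPL1, MAP1LC3C and 3 genes without a symbol. HSPB6, a small heat shock protein, was at 337.2, 801.7 and 493.0 CPM in the members and 20.8-fold to 77.4-fold above the other cells. SLC27A5, a fatty acid and bile acid coenzyme A ligase, was at 253, 370 and 397 CPM. The unnamed gene ENSMODG00000037566 took 29698, 22077 and 22262 CPM in the members, 17.01-fold to 75.5-fold above the others. The ratios of these leading genes were lower than those of the leading mouse genes, beside the higher level of rule genes in the other opossum cells; whether free RNA set them was not tested. CGA, the common alpha subunit of the glycoprotein hormones, had rank 14 in opossum, at 140, 559 and 209 CPM in the members and was at 0.945, 0 and 0 CPM in mouse members; it lay outside the naming rule and was picked after its values were seen.

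Outside the rule genes, which these rankings leave out, the genes in the top 50 of both species were ASS1 and ACSBG1. Of the opossum 50, 24 have no symbol by which to match them. ASS1, argininosuccinate synthase of the urea and nitric oxide routes, was at 1972, 2192 and 1272 CPM in mouse members and 119, 232 and 296 CPM in opossum members, and 306-fold to 869-fold and 5.68-fold to 20.7-fold above the other cells. ACSBG1, a ligase that activates long-chain fatty acids, was at 2046, 2026 and 1473 CPM and 409, 620 and 655 CPM, and 100-fold to 133-fold and 5.67-fold to 14.5-fold above. Both stood above the other cells in all 6 libraries.

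The species were then compared in the Leydig-rule cells alone, on counts summed per library over symbols that occur once in each annotation, without the rule genes (edgeR quasi-likelihood test, Benjamini-Hochberg adjustment). Levels in this comparison are CPM over those matched symbols, and a gene was called at adjusted p under 0.05 with at least a doubling or halving. Of 7228 genes tested 3697 (51.1%) were called, 1973 (27.3%) higher and 1724 (23.9%) lower in opossum. The libraries of the species did not overlap for 4322 genes (59.8%). Without opossum replicate 1 3743 genes were called (1891 higher, 1852 lower), and without mouse replicate 3 3675. Which direction held more genes turned under the 0.1% rule, with 1780 higher and 1873 lower, and also with a rule sum of 10, with scaling by library size alone and with sums thinned to the smallest library. Spearman's rho across genes, a description since genes are not independent, was 0.84 to 0.94 within mouse, 0.82 to 0.92 within opossum and 0.24 to 0.37 between the species. The median log2 difference of all genes was 0.18, and 0.05 when scaled by library size alone; lists below are to be read against these values and the percentages above. In sums over cells, more cells with a transcript and more transcript per cell cannot be told apart.

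Among enzymes and electron carriers of steroid conversion, 5 of 14 genes tested fell and 1 rose in opossum, with a median log2 difference of -0.19 that became 0.08 without opossum replicate 1. FDX1, the ferredoxin that feeds electrons to CYP11A1, was at 3391, 3979 and 3642 CPM in mouse and 242, 437 and 420 CPM in opossum, and every opossum library lay below every mouse library (log2 difference -3.10 ± 0.54 SE, adjusted p = 9.5e-04). FDXR, its reductase, was at 830, 713 and 616 CPM against 56.6, 65.7 and 65.3 CPM (-3.34 ± 0.42, adjusted p = 1.7e-04). Both partners of CYP11A1 were thus lower in opossum. CYB5A, the cytochrome b5 that favours the androgen-forming reaction of CYP17A1, was at 941, 1262 and 1033 CPM against 450, 988 and 872 CPM, overlapping, and was not called (-0.25, adjusted p = 0.688).

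HSD17B12, an enzyme of fatty acid elongation in this family, was at 497, 500 and 346 CPM in mouse and 401, 618 and 559 CPM in opossum and was not called (0.43, adjusted p = 0.424). HSD17B10, a mitochondrial dehydrogenase, was at 759, 1063 and 578 CPM against 199, 371 and 301 CPM without overlap (-1.26, adjusted p = 0.0455). That call did not stand without opossum replicate 1 (-0.96, adjusted p = 0.0602) nor on leaving out each of 4 other libraries, for which adjusted p was 0.0616 to 0.188, nor with the replicate block or no filter on low counts (adjusted p 0.0601 and 0.0656), and under the 0.1% rule and a rule sum of 10 the difference was smaller than a halving (-0.80 and -0.87). Against the other cells of the testis, 15 of 16 list members in mouse and 5 of 11 in opossum were at least 2-fold higher in the Leydig-rule cells. Of all genes 24.4% in mouse and 6.59% in opossum were that much higher. Rule genes were not left out of these counts, and any on the list was higher by the choice of cells.

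Genes of cholesterol synthesis were lower in opossum as a list: 13 of 16 tested fell, 0 rose, and the median log2 difference was -3.44, beside 23.9% of all genes lower. HMGCS1, which makes HMG-CoA at the entry of the route (mouse chromosome 13, 120151915 to 120170470), was at 945, 740 and 1039 CPM in mouse and 16.2, 5.58 and 4.35 CPM in opossum. The species were far apart and opossum replicate 1 was the highest of its group (log2 -6.65 ± 0.54, adjusted p = 4.4e-05). MSMO1, a sterol C4-methyl oxidase (chromosome 8, 65170603 to 65186830), was at 1089, 1126 and 934 CPM against 13.5, 23.6 and 20.5 CPM, without overlap (-5.55 ± 0.52, adjusted p = 5.7e-05). SC5D, the sterol C5 desaturase, was at 410.0, 336.9 and 740.4 CPM against 12.8, 20.4 and 14.9 CPM, highest in mouse replicate 3 (-4.71 ± 0.49, adjusted p = 8.5e-05). These 3 act at the start and near the end of the route.

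FDFT1, squalene synthase, was at 440, 444 and 350 CPM in mouse and 84.2, 57.5 and 60.3 CPM in opossum (-2.48 ± 0.36, adjusted p = 3.6e-04), and it was below the other cells in every library (0.515-fold to 0.907-fold in mouse, 0.479-fold to 0.634-fold in opossum). SREBF2, a transcription factor of this route, was lower too (-1.47 ± 0.40, adjusted p = 0.0110). It lay outside the naming rule, and its value was not followed by gene under the alternatives. Whether it had a part in the levels of the other genes was not tested. SCAP, the escort of SREBP proteins, was at 297, 265 and 175 CPM against 162, 180 and 216 CPM and overlapped (-0.21, adjusted p = 0.682), and ACAT2 and HSD17B7 were not called either. Over all alternatives 11 to 13 members of the list fell, 0 rose, and the median stayed between -3.90 and -3.15. Against the other cells of the same testes, 19 of 23 list members in mouse and 1 of 8 in opossum were at least 2-fold higher in the Leydig-rule cells, beside 24.4% and 6.59% of all genes; the opossum gene is SCAP.

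**Figure D4:**
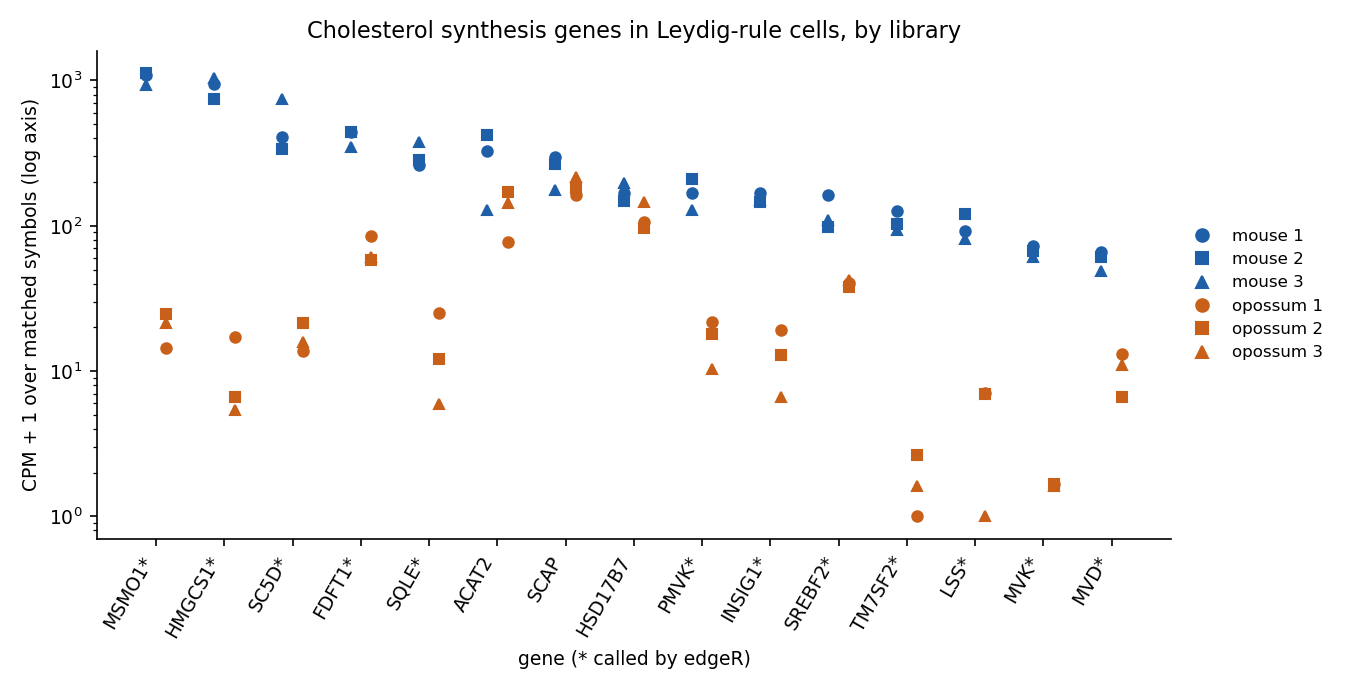
Level of 15 of the 16 tested cholesterol synthesis genes in the Leydig-rule cells of each library, in CPM plus 1 over matched symbols (log axis), ordered by mean; blue is mouse, orange opossum, symbols mark replicates and an asterisk marks a gene called by edgeR. For the 12 called genes shown every opossum library lay below every mouse library, whereas SCAP and ACAT2 overlapped.

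Genes of cholesterol uptake, storage and transport were mixed, with 5 of 15 lower, 2 higher and a median of -0.48. The number higher was 0 without mouse replicate 1, mouse replicate 3 or opossum replicate 3, 1 without mouse replicate 2 or opossum replicate 2 and 3 without opossum replicate 1, and the median was -0.99 without opossum replicate 3 and -0.14 without opossum replicate 1. APOE, the lipoprotein ligand (chromosome 7, 19430034 to 19434947), was at 3609, 3127 and 1630 CPM in mouse and 6374, 11829 and 7274 CPM in opossum. All opossum libraries lay above all mouse libraries (1.79 ± 0.62, adjusted p = 0.0332), yet the call was lost on leaving out any single library other than opossum replicate 1 (adjusted p 0.0618 to 0.144), with a rule sum of 3 (0.0551) and with the replicate block (0.110). SCARB1, the receptor for high-density lipoprotein, was at 434, 652 and 448 CPM against 175, 455 and 443 CPM, overlapping (-0.27, adjusted p = 0.683). It was at least 2-fold higher in the members than in the other cells of every library in both species. ABCA1, which exports cholesterol, fell (-2.04 ± 0.56, adjusted p = 0.0109; adjusted p = 0.0521 without opossum replicate 2, and -2.83 without opossum replicate 3), and VDAC1, an outer mitochondrial membrane channel, fell too (-1.89 ± 0.43, adjusted p = 0.0039). SCP2, a sterol carrier protein, differed by -0.11 (adjusted p = 0.860).

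In the list of LH receptor and cyclic AMP signalling, 6 of 17 genes fell and 4 rose, with a median of -0.61 that was -0.35 without opossum replicate 1 and -0.03 under the 0.1% rule, where 6 rose in each case. PRLR, the prolactin receptor (chromosome 15, 10177258 to 10349959), was at 2670, 2333 and 2863 CPM in mouse and 202, 460 and 748 CPM in opossum, lowest in opossum replicate 1 (-2.19 ± 0.61, adjusted p = 0.0120; -2.83 without opossum replicate 3). GNAS, the stimulatory G protein subunit that couples LHCGR to adenylate cyclase, was at 2098, 3202 and 2186 CPM against 321, 304 and 552 CPM (-2.45 ± 0.53, adjusted p = 0.0031). Neither gene overlapped between the species. The phosphodiesterase PDE10A, which breaks down cyclic nucleotides, went the other way, from 47.5, 155 and 153 CPM in mouse to 698, 574 and 1142 CPM in opossum (3.00 ± 0.58, adjusted p = 0.0017). For PDE10A the ratio of the opossum members to the other opossum cells was 0.635 to 1.03, so the members did not stand above those cells.

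Of the regulatory subunits of protein kinase A, PRKAR2A rose from 206, 54.4 and 140 CPM to 434, 354 and 400 CPM (1.74 ± 0.48, adjusted p = 0.0116; 0.0528 without mouse replicate 2). It was lower in the members than in the other cells of every library (0.167-fold to 0.519-fold in mouse, 0.594-fold to 0.760-fold in opossum). PRKAR1A was not called (-0.61, adjusted p = 0.264).

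Transcription factors of the steroidogenic lineage were near the background in both directions, with 5 of 18 lower and 4 higher and a median of -0.48. The median was -1.08 without opossum replicate 3, 0.05 without opossum replicate 2 and 0.16 without mouse replicate 3, and 3 genes were lower without mouse replicate 2. The number higher was 2 without mouse replicate 1, mouse replicate 2 or opossum replicate 3. NR5A1 was at 287, 289 and 130 CPM in mouse and 43.8, 48.3 and 82.1 CPM in opossum (-1.82 ± 0.50, adjusted p = 0.0112; 0.0506 without mouse replicate 2). The 2 groups did not overlap, and the gap was smallest between mouse replicate 3 and opossum replicate 3. GATA4, a partner of NR5A1 in this lineage, was at 180, 95.3 and 111 CPM against 202, 250 and 435 CPM and rose (1.44 ± 0.49, adjusted p = 0.0314). That call was lost without mouse replicate 2, mouse replicate 3 or opossum replicate 3 (adjusted p 0.103 to 0.122), with a rule sum of 3, with thinned sums and with the replicate block (adjusted p 0.0634 to 0.0805). NR2F2 (COUP-TFII) was at 174, 119 and 493 CPM against 280, 568 and 878 CPM (1.46, adjusted p = 0.0799; called without opossum replicate 1, without mouse replicate 3, with the 0.1% rule, with a rule sum of 10 and with no filter on low counts, adjusted p 0.0040 to 0.0497), and ESR1, an estrogen receptor, differed by -0.70 (adjusted p = 0.278).

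Markers of stem and progenitor Leydig cells numbered 7 tested, of which 3 were higher and 2 lower, with a median of 1.46 that was 0.23 to 1.87 on leaving out single libraries, lowest without mouse replicate 2, and 0.09 with sums thinned to the smallest library, where 1 was higher; without mouse replicate 1 only 1 was higher. VCAM1, an adhesion molecule (chromosome 3, 115903598 to 115923355), was at 4299, 4973 and 4357 CPM in mouse members and at 0.674, 0 and 0.622 CPM in opossum members. The 2 opossum counts against 6464 mouse counts give a ratio of 14095 (exact 95% interval 3900 to 116412, counting error only). PTCH1, the hedgehog receptor, was at 178, 128 and 82.6 CPM against 16.8, 8.87 and 14.3 CPM (-3.16 ± 0.48, adjusted p = 4.3e-04). ITGAV, an integrin subunit, rose from 39.6, 39.1 and 41.3 CPM to 104, 146 and 254 CPM (2.32 ± 0.51, adjusted p = 0.0034). LIFR, the receptor of leukemia inhibitory factor, was not called (-0.92, adjusted p = 0.145), but was without opossum replicate 3 (-1.53, adjusted p = 0.0245) and when scaled by library size alone (-1.18, adjusted p = 0.0472).

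Among secreted factors and growth factor receptors 8 of 16 fell and 3 rose, with a median of -1.29 that was -0.66 without mouse replicate 3, -2.07 with a rule sum of 10 and -2.34 with sums thinned to the smallest library. AGT (chromosome 8, 125279301 to 125296716) was at 6785, 7593 and 7016 CPM in mouse members and 0.674, 0 and 0.622 CPM in opossum members. Those are 2 opossum counts against 10096 mouse counts, a ratio of 22015 (exact 95% interval 6093 to 181808, counting error only). TIMP2, an inhibitor of matrix metalloproteinases, was at 2639, 3467 and 2730 CPM against 30.3, 48.0 and 88.3 CPM (-5.47 ± 0.67, adjusted p = 1.6e-04; -6.11 without opossum replicate 3). INHA, the inhibin alpha subunit, was at 767, 730 and 191 CPM against 31.0, 146 and 24.9 CPM without overlap (-2.87 ± 0.78, adjusted p = 0.0107; -4.21 without opossum replicate 2), and IGF1R, the IGF1 receptor, fell (-2.08 ± 0.40, adjusted p = 0.0017). In the other direction SERPINE2, a protease inhibitor, stood at 263, 683 and 832 CPM in opossum and 5.94, 10.2 and 9.53 CPM in mouse.

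Antioxidant and detoxifying genes fell in 7 of 14 cases and rose in 1, with a median of -1.59; without opossum replicate 1, 8 fell and 3 rose. SOD1, the cytosolic superoxide dismutase, rose from 992, 633 and 686 CPM to 3703, 6078 and 3619 CPM (2.72 ± 0.54, adjusted p = 0.0021). MGST1, a membrane-bound glutathione transferase, was at 4279, 5703 and 3836 CPM against 281, 416 and 576 CPM (-3.21 ± 0.59, adjusted p = 0.0012). The 2 genes moved in opposite directions, and neither overlapped. ALDH1A1, a retinaldehyde dehydrogenase, was at 12076, 12172 and 5329 CPM against 1913, 3115 and 4051 CPM and was not called (-1.48, adjusted p = 0.0827), although it was called lower without opossum replicate 1 (adjusted p = 0.0470) and under 5 other settings: the 0.1% rule, a rule sum of 10, scaling by library size alone, DESeq2 and thinned sums (adjusted p 0.0107 to 0.0271). PRDX1, a peroxiredoxin, differed by -0.81 (adjusted p = 0.267), and GPX4, which reduces lipid peroxides, fell by 2.14 on the log2 scale (adjusted p = 0.0391; 0.0549 with entries rounded up, 0.103 to 0.128 without mouse replicate 1, mouse replicate 2 or opossum replicate 3, and a fall of 3.42 without opossum replicate 2). GPX4 was lower in the members than in the other cells of every library (0.565-fold to 0.680-fold in mouse, 0.160-fold to 0.519-fold in opossum). The elongating spermatid markers given above were higher in the mouse members than in the opossum members. Their part in the GPX4 difference between the species was not tested.

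Among immediate-early and heat shock genes of the dissociation response 8 of 13 fell and 0 rose, with a median of -3.67 that was -2.49 without mouse replicate 3, where 2 rose, and -4.72 with sums thinned to the smallest library. FOS was at 47.5, 81.7 and 1986 CPM in mouse and 158, 122 and 100 CPM in opossum, so mouse replicate 3 stood above every other library. EGR1 and BTG2 showed the same replicate at 591 and 1122 CPM, against 15.3 to 33.7 and 41.6 to 44.2 CPM in the other mouse libraries. None of these 3 genes was called (adjusted p 0.101, 0.119 and 0.522), and without mouse replicate 3 the log2 differences were 1.03 for FOS, 5.04 for EGR1 and 2.21 for BTG2, with EGR1 and BTG2 then called (adjusted p 0.0016 and 0.0200). With all libraries kept, EGR1 was also called higher under the 0.1% rule (2.57, adjusted p = 0.0309) and with the replicate number as a block (3.37, adjusted p = 0.0113). Leaving out mouse replicate 1 or 2 instead called FOS lower in opossum (adjusted p 0.0345 and 0.0499), as did thinned sums (adjusted p = 0.0316). JUN was lower in opossum, with 1.35, 7.88 and 3.11 CPM against 95.1, 104 and 1084 CPM (-6.27 ± 1.09, adjusted p = 9.5e-04). It remained called at -4.32 without mouse replicate 3 and -7.22 without opossum replicate 2. The annotated JUN gene spans 94937271 to 94940459 in mouse and 33278915 to 33279949 in opossum, and the part of annotation was not tested. HSPA8, a constitutive heat shock protein, was lower in opossum too (-2.07 ± 0.44, adjusted p = 0.0029).

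Without opossum replicate 1 and under the 0.1% rule, in that order, the list medians were -3.57 and -3.89 for cholesterol synthesis, -1.75 and -1.59 for secreted factors, -1.43 and -1.55 for antioxidants, and -3.11 and -2.48 for the dissociation response. The remaining medians were 0.08 and 0.10 for steroid conversion, -0.14 and -0.11 for cholesterol uptake, -0.12 and -0.06 for transcription factors, and 0.28 and 0.41 for stem and progenitor markers. The median of all genes was 0.05 and 0.02.

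**Figure D5:**
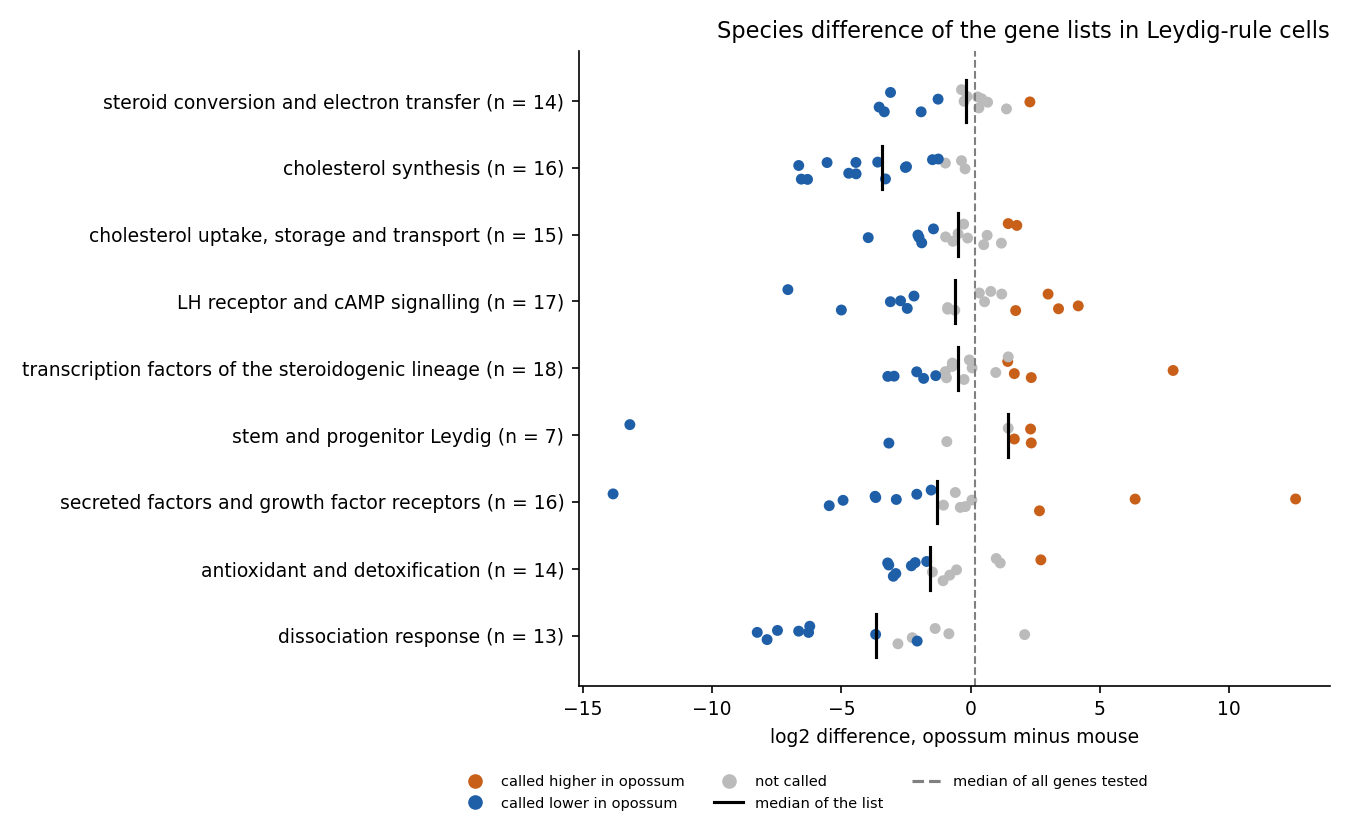
Fitted log2 difference, opossum minus mouse, of every tested gene of each list in the Leydig-rule cells (orange called higher, blue called lower, grey not called), with the median of the list (bar) and of all genes tested (dashed line, 0.18). Cholesterol synthesis (median -3.44) and the dissociation response (-3.67) lay farthest below the dashed line; the 3 outermost points (VCAM1, AGT and BMPR1B) rest on 0 to 2 counts in 1 species, so their fitted values have no reliable size.

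The largest differences over all matched symbols were also named. Higher in opossum were GSTM3, ACBD7, STARD13, MMD, FSTL1, CAPN5, PALLD, MTURN, PRKCB and CCN1, with log2 differences of 6.74 to 12.14. GSTM3, a glutathione transferase, was at 7957, 16934 and 9877 CPM in opossum and 1.98, 3.40 and 3.18 CPM in mouse, while the mouse paralogs Gstm1 and Gstm2 stood at 13222 and 4089 CPM of all counts in the mouse members. Pairing by symbol is therefore uncertain for this family. MMD, a membrane protein of the PAQR family, was at 898, 1786 and 1586 CPM against 9.90, 5.10 and 9.53 CPM (7.69 ± 0.68, adjusted p = 5.2e-05). In opossum MMD was 7.21-fold to 21.7-fold above the other cells. ACBD7, FSTL1, CAPN5, PALLD and PRKCB were also at least 2-fold above them in every opossum library. GSTM3, STARD13, MTURN and CCN1 were not, with ratios of 0.674 to 7.60, 1.64 to 4.65, 0.645 to 3.00 and 0.934 to 1.41. ACBD7 and CAPN5 rest on 3 mouse counts each, giving ratios of 453 (exact 95% interval 155 to 2196) and 115 (39.3 to 558), counting error only. Several of these fitted values moved by over 1.5 times on leaving out 1 library. Without opossum replicate 3 STARD13, CAPN5, PALLD and PRKCB were at 7.05, 6.44, 6.21 and 6.35. Without mouse replicate 1 CAPN5, FSTL1 and MTURN were at 7.99, 6.50 and 7.65, and without mouse replicate 2 ACBD7, FSTL1, MTURN and PALLD were at 9.72, 8.25, 6.32 and 6.36. PALLD was at 7.64 without mouse replicate 3.

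Lower in opossum were WNT6, GM2A, CRISP2, ARPC1B, MAP1LC3A, FBXL7, PAQR6, IER2, ITIH2 and TESC, with log2 differences of -10.21 to -8.13. MAP1LC3A was at 2.70, 7.88 and 2.49 CPM in opossum, while its paralog MAP1LC3C stood at 979, 1908 and 1884 CPM of all counts in the opossum members. Pairing by symbol is therefore uncertain for MAP1LC3A as well. WNT6, a secreted Wnt ligand (chromosome 1, 74810922 to 74824975), was at 957, 1242 and 826 CPM in mouse and 1.35, 0.328 and 0.622 CPM in opossum (-10.21 ± 0.64, adjusted p = 2.6e-05). In mouse it was 66.6-fold to 113-fold above the other cells, while the 4 opossum counts in all are too few to give a direction there. CRISP2 is a sperm protein and was lower in the mouse members than in the other mouse cells (0.061-fold to 0.244-fold). The elongating spermatid markers given above were higher in the mouse members than in the opossum members. Their part in the CRISP2 difference between the species was not tested. FBXL7 rests on 3 opossum counts, a ratio of 507 (exact 95% interval 172 to 2472, counting error only). Its annotated span is 26540545 to 26895671 in mouse and 114496881 to 114509904 in opossum. IER2, an immediate-early gene, was at 49.5, 63.0 and 702 CPM in mouse and 0.674, 0.657 and 0.622 CPM in opossum. Its log2 difference of -8.25 was -6.16 without mouse replicate 3. The annotated IER2 gene spans 85387960 to 85389483 in mouse and 447215781 to 447216494 in opossum. The part of annotation in the FBXL7 and IER2 differences was not tested. Without opossum replicate 2 CRISP2, GM2A, MAP1LC3A, PAQR6 and FBXL7 were at -10.36, -10.61, -9.42, -9.36 and -7.63, and FBXL7 was at -9.42 without opossum replicate 3. All of these kept their direction.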

How the data were processed

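The deposited matrices hold estimated counts per gene and cell that need not be whole, per the file headers and values; the step that made them fractional is not given in the sources used here. Cell Ranger 6.0.1 and GRCm39 appear in the submitters' processing notes. Barcodes were kept at 1000 counts and 500 genes, and Leydig-rule cells were those with a summed 4.5 counts over the rule genes. Counts were summed per library over these cells, rounded to whole numbers and compared between species over 10751 symbols found once in each annotation (32532 mouse features, 11523 of 32251 opossum features with a symbol), with the rule genes left out, using edgeR 4.0.16 (TMM, filterByExpr, quasi-likelihood test) in R 4.3.3, with n = 3 libraries per species. A gene was called at Benjamini-Hochberg adjusted p under 0.05 and an absolute log2 difference of at least 1. Shares were compared with an exact two-sided permutation test in scipy 1.17.1. The species comparison was tested on simulated data over 7419 genes: of genes changed by a log2 of 1, 2 and 4 it called 47.8%, 97.0% and 100%, and it called 0.0415% of 7224 unchanged genes. The simulation gave every gene the same dispersion of 0.05 and changed 67, 67 and 61 of the genes fitted. In the data 51.1% of genes were called. The rates were not measured at the spread of the data, so they do not describe the real comparison.

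Genes were named by a rule: the 10 largest called differences in each direction with at least 100 CPM in the higher species, at least 3 counts in the lower and no overlap; up to 5 per list by mean level; over the other cells, the 10 highest lowest-of-3 ratios per species at 100 CPM or more, and genes in the top 50 of both. The rule genes were left out of these rankings. The members and lists were chosen with earlier results of these data known. The automatic threshold of Scrublet (scanpy 1.11.5) marked at most 1.97% of kept cells and under 0.5% in several libraries, so no doublet was removed; removing the top 8% by score, which held 7.14% to 38.4% of the mouse and 3.49% to 10.3% of the opossum members per library, is an alternative. Other alternatives changed the threshold, the depth minimum, the rounding, the scaling, the low-count filter and the tool (DESeq2 1.42.0), or left out libraries. Mouse positions and promoters come from GRCm39 with GENCODE vM39. No opossum genome was used here. A few named genes are not reported here. Bulk libraries of the series were not analysed here, apart from gene positions.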

Additional observations from a re-analysis of the deposited data

Results flagged for a closer look

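For 17 of the named genes the ratio of Leydig-rule cells to the other kept cells lay above 1 in all 3 libraries of one species and below 1 in all 3 libraries of the other. The difference between the species' ratios was not tested, and most of these genes were named for their species difference, so the split is a description. The share of all matched genes with such a split was not computed, so the number 17 cannot be called high or low. In opossum WNT6, VCAM1, GM2A, ARPC1B, FBXL7, PAQR6, IER2, ITIH2 and TESC had only 2 to 7 counts in the members, so their opossum ratios, taken with 1 CPM added to each level, rest on few counts and on that addition and give no direction of their own. These genes passed the filter on low counts through mouse.

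In mouse 15 of the 17 stood above the other cells. Among genes of cholesterol synthesis, HMGCS1 was at least 15.2-fold above in mouse and at most 0.670-fold in opossum, and SC5D was at least 16.8-fold above and at most 0.554-fold. Signalling and adhesion genes of this kind were WNT6 (at least 66.6-fold against at most 0.161-fold), VCAM1 (223 against 0.343) and PTCH1 (4.45 against 0.397). PAQR6, a membrane receptor of the progestin receptor family, was at least 110-fold above in mouse and at most 0.224-fold in opossum. TESC, a calcium-binding protein, had 57.4-fold against 0.984-fold, and ITIH2, a hyaluronan-binding protein, 24.9-fold against 0.837-fold. FBXL7, an F-box protein, had 12.4-fold against 0.569-fold, ARPC1B, an actin nucleation subunit, 11.4-fold against 0.227-fold, GM2A, a lysosomal lipid activator, 4.92-fold against 0.506-fold, and MAP1LC3A, an autophagy protein, 1.38-fold against 0.360-fold. The immediate-early genes FOS (5.50 against 0.721), IER2 (4.20 against 0.546) and JUN (5.87 against 0.433) had the same pattern.

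The other 2 stood above in opossum. PALLD, an actin scaffold protein, was at least 2.71-fold above the other cells in opossum and at most 0.698-fold in mouse, and PRKCB, a protein kinase C, had 2.73-fold against 0.752-fold. The mouse side rests on 10 counts for PALLD and 8 for PRKCB, and both passed the filter on low counts through opossum, so their mouse ratios give no direction of their own either.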

How the results depend on the processing

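Of 136 recomputed main values 123 kept their direction and size class. The share difference turned to -1.24 points when the rule sum had to be 0.5% of a cell's counts and to -0.178 when cells were thinned to 1000 counts, and leaving out single libraries gave 4.98 to 9.89 points. Without single libraries 2935 to 3743 genes differed between species, and 2748 to 4254 under the other settings, the lowest with sums thinned to the smallest library. Over the other cells, a minimum of 100 CPM left 828 higher and 1258 lower in mouse and 304 and 805 in opossum, and no minimum gave 4958 and 4648 lower. In opossum a rule sum of 10 gave 3389 lower, and a rule sum of 0.1% of a cell's counts gave 919 higher and 3610 lower (this alternative was added after the data were seen). Leaving out single opossum libraries gave 619 to 1219 higher and 2222 to 3488 lower, the upper values without replicate 1. The cause of these shifts was not tested. Of the values for named genes and lists 1468 kept their call or count, 29 lost a call, 19 gained a call, 13 reversed and 28 were list counts that moved by over 1.5 times. The moved counts of genes higher in opossum were 0, 1 or 4 for cholesterol uptake (2 as reported) and 3 for antioxidants (1 as reported). They were 1 or 2 for the dissociation response (0 as reported) and 1 for stem and progenitor markers (3 as reported). For steroid conversion the moved count was 2 (1 as reported), and for transcription factors it was 1 or 2 (4 as reported). Transcription factors lower in opossum numbered 3 without mouse replicate 2 (5 as reported).

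Reversed log2 differences were as follows, all of genes not called as reported. With the 0.1% rule CYB5A was 0.10, SCARB1 0.087 and SCP2 0.28, and with a rule sum of 10 they were 0.023, 0.00694 and 0.19. Leaving out single libraries, CYB5A ranged from -0.44 to 0.089, SCARB1 from -0.55 to 0.11, SCP2 from -0.44 to 0.22, FOS from -2.80 to 1.03 and BTG2 from -1.58 to 2.21. The positive values came without opossum replicate 1 for CYB5A, SCARB1 and SCP2, also without mouse replicate 2 for SCP2, and without mouse replicate 3 for FOS and BTG2. The median of steroid conversion became 0.10 (0.1% rule), 0.02 (rule sum of 10) and 0.08 (without opossum replicate 1), and that of transcription factors 0.16 without mouse replicate 3, 0.049 without opossum replicate 2, 0.044 with no filter on low counts and 0.023 with entries rounded up.

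With the replicate number as a block 3408 genes were called, and BTG2 became 0.50. Same-numbered libraries of the 2 species had correlations of deviations of -0.115, 0.093 and -0.070. The labels number the libraries of each species and do not say that equal numbers belong together. With 3 libraries per species these correlations cannot settle it, and shared processing was not tested. The 0.5% rule was not run for the species comparison, since it left 1 cell in opossum replicate 1. Genes without an opossum symbol, such as Hsd17b3, cannot be compared.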
